A study of Homo sapiens with 4 samples.

Results

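The genes described here are 56 host genes of the DNA damage response, that is, genes whose transcripts gave rise to circular RNA and whose proteins sense, signal or repair DNA damage. They were taken as a fixed list of gene symbols, chosen with earlier results of these data known. Every row of the deposited table whose gene annotation named a member exactly, and whose circle type was not antisense, was assigned to that member. Of the 56 genes, 55 had at least 1 count. Their rows numbered 2885 of 211599, and 2659 of these had counts, against 190152 rows with counts in the whole table. The members held 37063 counts.

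The cells were MDA-MB-468, a line established from a human breast cancer, made radioresistant with a total of 50 Gy given in fractions. The controls, 2 libraries, carried the short hairpin shCtrl, and the other 2 libraries carried a stable hairpin against HNRNPL (shHNRNPL). HNRNPL is an RNA-binding protein that regulates splicing. Both groups were radioresistant, so no comparison with unirradiated cells was made, and the labels' protocols name a single hairpin for the knockdown. The labels call the libraries biological replicates without naming separate cultures, so p-values measure the spread between these libraries. No row named HNRNPL, so the knockdown could not be checked in these circular counts and rests on the labels.

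A circular RNA forms when the spliceosome joins the end of a downstream exon back to the start of an upstream exon, and the closed molecule is resistant to exonucleases. Breaks in DNA are sensed by kinases such as ATM, ATR and the DNA-dependent kinase encoded by PRKDC, which signal to checkpoint kinases and to chromatin-bound adaptors. Breaks are then joined directly or copied from the sister chromatid with the help of BRCA1, BARD1 and BRCA2, while translesion polymerases and the mismatch repair complex deal with lesions met during replication. A circular count reports the back-spliced product of such a gene and says nothing of its protein or of its linear mRNA.

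Induro reverse transcriptase and random hexamers turned total RNA into cDNA, which was amplified with phi29 polymerase, debranched and read on a nanopore sequencer, per the labels' protocols. Library totals lay between 282737 and 556578 counts. Where a library has 0 counts, the true value could reach 3 counts, or 0.539 to 1.06 per 100000, for counting error only, since amplified copies carried no molecular identifiers. The control libraries differed from each other more than the knockdown libraries did. Per member, the mean chi-square was 60.8 between the controls (42 members with at least 40 counts in the pair). Between the knockdowns it was 4.07 (33 members). Per host gene, over all host genes, these means were 20.2 and 2.12. Chi-square grows with the count, so abundant members such as BARD1 (1017 and 3971 control counts) weigh heavily. The means therefore do not show that members vary more than other host genes. CHEK2, for example, had a ratio of control replicate 2 over control replicate 1 of 0.991. Of those 42 members, 8 were at least 2-fold higher per 100000 in control replicate 2 than in control replicate 1, among them BARD1, ATM, MLH3 and PMS1, and 5 were at least 2-fold lower, LIG4, LIG3, POLK, CHEK1 and ZRANB3. Epithelial markers of the line were present as circles for EGFR (200 counts), EPCAM (108) and CDH1 (42), while KRT7 had 3 counts and KRT8 and KRT18 had 0. The leukocyte, endothelial and fibroblast markers PTPRC, PECAM1, COL1A2 and PDGFRB had 0 counts.

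Circular output was concentrated in few members. BARD1 held 26.5% of all member counts and the 10 most abundant members held 74.9%, while the median member had 175 counts. Per 10 kb of gene span, BARD1 had 69.8 counts per 100000, MLH3 26.3 and ATM 18.5, as means over the 4 libraries. At the other end, MDC1, the chromatin adaptor of phosphorylated H2AX, had 0 counts, and SMARCAL1, ATRIP and XRCC4 had 3, 7 and 9, which left them below the minimum of 10 counts needed for a test. The remaining 52 members were tested.

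**Figure D1:**
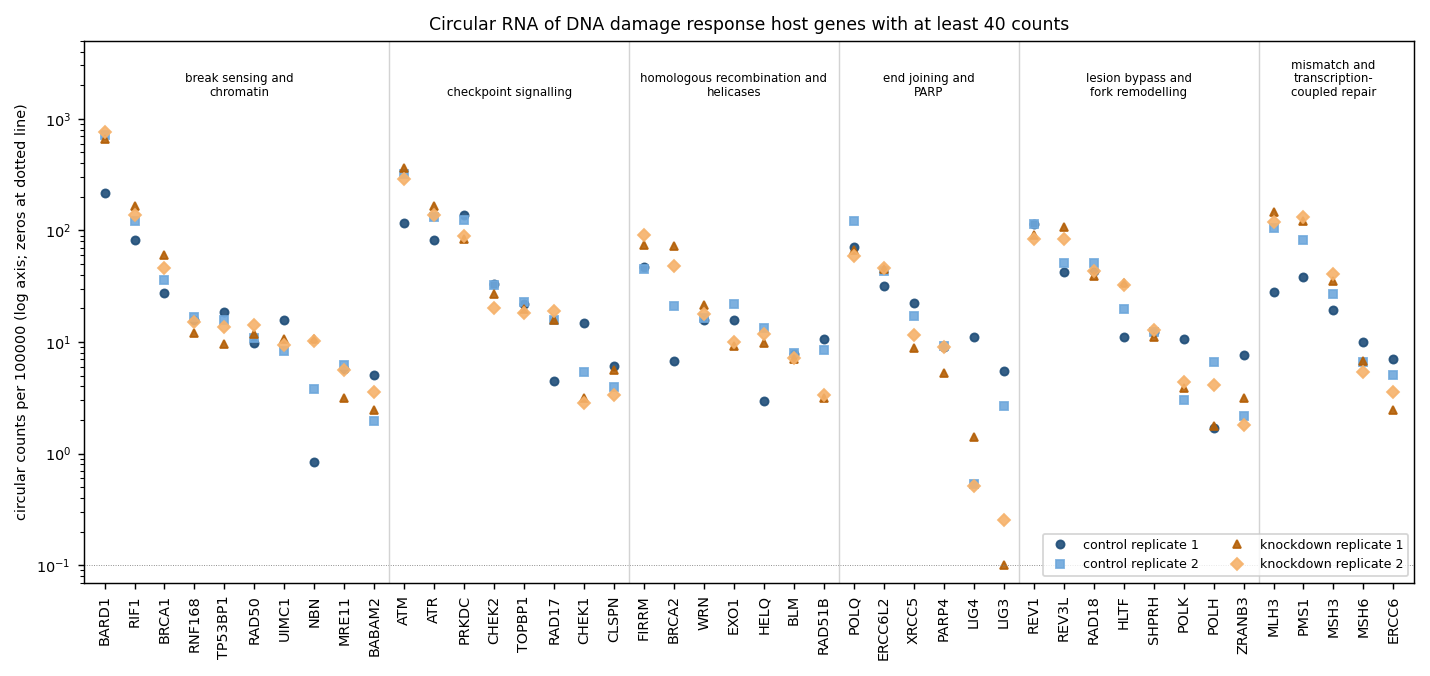
Circular counts per 100000 of each member with at least 40 counts, on a log axis, by role in the DNA damage response, with 1 point per library and zeros on the dotted line. BARD1 and ATM lead the plot, and control replicate 1 lies well below the other libraries for BARD1, ATM, MLH3 and PMS1.

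The members formed 2659 different circles. Of these, 1163 occurred in a single library and 405 in all 4. Exon circles numbered 2206 and intron circles 453. The median exon circle of the members was 1629 nt long with 8 exons. Of the exon-circle counts, 99.0% carried the motif AG-GT at the back splice, the acceptor and donor dinucleotides of the common splice site. Genes differed in how many ends they used. ATM had 225 exon circles built from 67 upstream and 60 downstream ends, whereas BARD1 had 41 from 12 upstream and 18 downstream ends and MLH3 had 17 from 5 and 10. MLH3 was close to a single product, a circle of its 3343-nt exon with 81.1% of its counts. In RIF1, the most abundant of 199 circles held 6.61%. A few members were mostly intronic: 89.3% of BABAM2 counts, 85.7% of RAD51B counts and 78.1% of ZRANB3 counts lay outside exon circles.

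The share of all counts that fell in members was 1.42% and 2.41% in the controls, against 2.56% and 2.48% in the knockdowns. Each knockdown library exceeded each control, with means of 1.92% ± 0.699 (SD, n = 2) and 2.52% ± 0.0559 (SD, n = 2). An exact two-sided permutation test gave p = 0.33, the smallest possible with 2 against 2. Without control replicate 1 the difference was 0.103 percentage points in place of 0.598. With BARD1 left out, the share was 1.21% and 1.7% in the controls, against 1.9% and 1.72% in the knockdowns. Control replicate 2 and knockdown replicate 2 were then nearly equal. The share of member counts outside exon circles was 10.5% and 3.08% in the controls, against 2.67% and 2.26% in the knockdowns (exact permutation test, p = 0.33). The same order held for all other counts that were not antisense, at 24.1% and 13.0% in the controls against 12.4% in each knockdown. The count-weighted median length of member exon circles was 1469 and 1458 nt in the controls, against 1462 and 1410 nt in the knockdowns, a difference within the replicate spread (exact permutation test, p = 0.667).

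The first comparison asked which members had more or less circular RNA in total after HNRNPL knockdown. In edgeR's quasi-likelihood test no member reached an adjusted p under 0.05 with Benjamini-Hochberg adjustment over 8379 host genes, and the smallest adjusted p of a member was 0.162. Over all host genes, 37 passed, all of them higher, which is 0.442% of those tested. At an unadjusted p under 0.05 in edgeR, 8 members were higher and 3 were lower, against a background of 7.58% and 6.19% of all host genes. DESeq2 called BRCA2 and REV3L, both higher, where 184 of 8379 host genes (2.2%) passed. The median log2 fold change of the 52 members was 0.09 and that of all host genes was -0.26. With library-size scaling in place of TMM, these medians were -0.22 and -0.58. In 16 members both knockdown libraries lay above both controls per 100000, and in 19 both lay below, against 15.3% and 36.7% of all host genes. The counts moved strongly with the control library used: leaving out control replicate 1 gave 16 members past the threshold (12 higher, 4 lower) and leaving out control replicate 2 gave 25 (19 higher, 6 lower), but then 25.1% and 36.3% of all host genes passed as well. Leaving out either knockdown library gave 0.

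**Figure D2:**
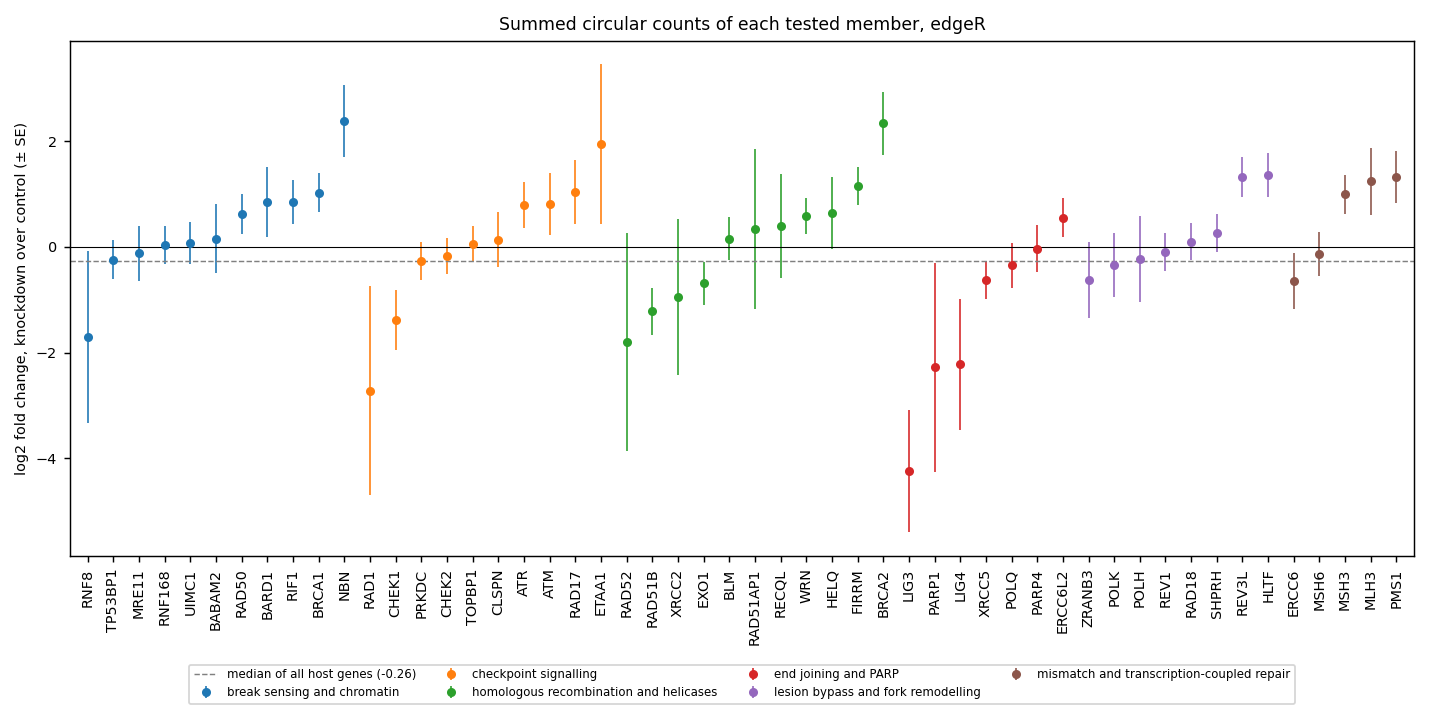
Log2 fold change of summed circular counts, knockdown over control, for the 52 tested members by role, with the standard error from edgeR as bars and the median of all host genes as a dashed line. No member passed an adjusted p of 0.05. BRCA2 and NBN lie highest and LIG3 lowest.

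Among the break sensors and chromatin adaptors, 11 of 12 genes were tested. At an unadjusted p under 0.05 in edgeR, 2 were higher (NBN and BRCA1) and none was lower. The median log2 fold change was 0.16. Over all host genes, 7.58% were higher and 6.19% lower at that p, and the median was -0.26. The same background applies to each role below, and no role was tested against it. NBN, a subunit of the complex with MRE11 and RAD50 that binds broken ends, had 0.847 and 3.77 counts per 100000 in the controls, against 10.6 and 10.2 in the knockdowns. The groups did not overlap, and its log2 fold change was 2.39 ± 0.68 (SE; edgeR adjusted p = 0.199). These were 95 counts spread over 34 circles, the largest of which had 10. The partners of NBN differed from it in level and order. MRE11, the nuclease, had 5.72 and 6.29 counts per 100000 in the controls, against 3.18 and 5.63 in the knockdowns. Its log2 fold change was -0.12 ± 0.52 (edgeR adjusted p = 0.939), smaller than its SE. Rows that also named another gene held 39.8% of MRE11 counts. RAD50, the ATPase that tethers the ends, had 9.74 and 10.8 in the controls, against 11.7 and 14.1 in the knockdowns, and every RAD50 row also named another gene, so its counts cannot be assigned to RAD50 alone. RIF1, which restrains end resection, had 81.3 and 121 counts per 100000 in the controls, against 164 and 137 in the knockdowns, again without overlap (log2 fold change 0.85 ± 0.42, edgeR adjusted p = 0.413). TP53BP1, the adaptor upstream of RIF1, had 18.6 and 15.6 in the controls, against 9.55 and 13.6 in the knockdowns.

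BRCA1, a ubiquitin ligase that acts with BARD1, had 27.7 and 35.6 counts per 100000 in the controls, against 60.1 and 45.8 in the knockdowns. Both knockdown libraries were higher, with a log2 fold change of 1.03 ± 0.37 (edgeR adjusted p = 0.295). BRCA1 was chosen for description after its values were seen. Its most abundant circle, at chr17:43090944-43094860, joined an 89-nt exon to the 3426-nt exon of the gene and had 17 and 33 counts in the controls, against 44 and 51 in the knockdowns. BARD1, the partner that forms a heterodimer with BRCA1, had 215 and 713 counts per 100000 in the controls, against 659 and 757 in the knockdowns. Control replicate 2 and the knockdown libraries lay close together and control replicate 1 was far lower, so the groups overlapped. The log2 fold change of BARD1 was 0.85 ± 0.67 (edgeR adjusted p = 0.587), and 0.23 without control replicate 1.

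Among the checkpoint kinases and their partners, 10 of 11 genes were tested, none was higher and 1 was lower (CHEK1) at an unadjusted p under 0.05, and the median log2 fold change was 0.10. ATM, the kinase activated by double-strand breaks, had 116 and 321 counts per 100000 in the controls, against 359 and 288 in the knockdowns. The groups overlapped, and control replicate 1 was the library that stood apart (log2 fold change 0.81 ± 0.59, edgeR adjusted p = 0.555; 0.24 without control replicate 1). ATR, the kinase activated by single-stranded DNA, had 81.5 and 131 in the controls, against 167 and 137 in the knockdowns, which did not overlap (log2 fold change 0.79 ± 0.44, edgeR adjusted p = 0.455; 0.45 without control replicate 1). PRKDC, the catalytic subunit that binds the Ku dimer at broken ends, ran the other way, with 136 and 123 counts per 100000 in the controls, against 83.5 and 89.1 in the knockdowns. The PRKDC groups did not overlap, yet its log2 fold change after TMM scaling was only -0.27 ± 0.36 (edgeR adjusted p = 0.766), on a scale where the median host gene lay at -0.26. CHEK1, the effector kinase downstream of ATR, had 14.8 and 5.39 in the controls, against 3.18 and 2.82 in the knockdowns. Control replicate 1 carried most of the CHEK1 difference, including an intron circle with 17 counts found only there, and 58.3% of CHEK1 counts lay in rows that also named another gene. Its log2 fold change was -1.38 ± 0.56 (edgeR adjusted p = 0.33), and -0.61 without control replicate 1.

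Among the genes of homologous recombination and the helicases, all 11 were tested, 2 were higher (BRCA2 and FIRRM) and 1 lower (RAD51B) at an unadjusted p under 0.05, and the median log2 fold change was 0.34. BRCA2, a mediator of homologous recombination, had 6.77 and 21.2 counts per 100000 in the controls, against 72.2 and 48.4 in the knockdowns. Both knockdown libraries lay well above the higher control. The log2 fold change of BRCA2 was 2.34 ± 0.59, with an edgeR adjusted p of 0.162, and it lay between 1.72 and 3.70 when single libraries were left out. FIRRM, a partner of the AAA ATPase FIGNL1, had 46.8 and 45.1 in the controls, against 74.3 and 91.2 in the knockdowns. The FIRRM controls were nearly equal, and the log2 fold change was 1.16 ± 0.36 (edgeR adjusted p = 0.224; 0.99 to 1.40 with single libraries left out). RAD51B, a homologous recombination protein, had 10.6 and 8.44 counts per 100000 in the controls, against 3.18 and 3.33 in the knockdowns (log2 fold change -1.22 ± 0.45, edgeR adjusted p = 0.302). Most RAD51B counts lay outside exon circles, and with exon circles alone its log2 fold change was -0.40 (edgeR adjusted p = 0.888). EXO1, a resection nuclease, had 15.7 and 22.1 in the controls, against 9.20 and 9.99 in the knockdowns, without overlap (log2 fold change -0.69 ± 0.40, edgeR adjusted p = 0.466; -0.13 without control replicate 2).

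Among the genes of end joining and the PARP family, 7 of 8 were tested, none was higher and 1 was lower (LIG3) at an unadjusted p under 0.05, and the median log2 fold change was -0.62. In 5 of the 7 both knockdown libraries lay below both controls per 100000, as in 36.7% of all host genes. LIG3, a DNA ligase of alternative end joining and single-strand break repair, had 26 and 15 counts in the controls, against 0 and 1 in the knockdowns. The pooled ratio of knockdown over control was 0.0373, with an exact 95% interval of 0.000922 to 0.220 for counting error only. The edgeR adjusted p was 0.193. LIG3 was named for its small p, so this interval is no separate support. Its main circle, 2 exons of 695 nt at chr17:34983002-34986131, had 12 and 13 counts in the controls and 0 in both knockdowns, at least 2.67-fold lower with the floor of 3 counts set for each knockdown library. XRCC5, which encodes the Ku80 subunit of the end-binding dimer, had 22.2 and 17.2 counts per 100000 in the controls, against 8.84 and 11.5 in the knockdowns (log2 fold change -0.62 ± 0.36, edgeR adjusted p = 0.466). POLQ, the polymerase of microhomology-mediated joining, had 70.5 and 122 in the controls, against 66.5 and 58.6 in the knockdowns. Control replicate 1 lay near the knockdown libraries for POLQ, and the log2 fold change of -0.35 ± 0.43 (edgeR adjusted p = 0.746) turned to 0.39 without control replicate 2. LIG4, the ligase of classical end joining, had 53 of its 62 counts in control replicate 1.

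Among the translesion polymerases and fork remodellers, 8 of 9 genes were tested, 2 were higher (REV3L and HLTF) and none was lower at an unadjusted p under 0.05, and the median log2 fold change was 0.01. REV3L, the catalytic subunit of polymerase zeta, had 42.1 and 51.2 counts per 100000 in the controls, against 107 and 84.2 in the knockdowns. The groups did not overlap and the log2 fold change was 1.32 ± 0.38 (edgeR adjusted p = 0.204; 1.13 to 1.74 with single libraries left out). HLTF, a fork remodeller and ubiquitin ligase for PCNA, had 11.2 and 19.8 in the controls, against 33.6 and 32.3 in the knockdowns (log2 fold change 1.36 ± 0.42, edgeR adjusted p = 0.223). REV1, the scaffold of the translesion polymerases, was steady within each group, with 113 and 115 in the controls, against 90.2 and 83.5 in the knockdowns. Its log2 fold change after TMM scaling was -0.09 ± 0.36 (edgeR adjusted p = 0.936) and turned to 0.19 without control replicate 2.

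Among the genes of mismatch and transcription-coupled repair, all 5 were tested, 2 were higher (PMS1 and MSH3) and none was lower at an unadjusted p under 0.05, and the median log2 fold change was 1.00. PMS1, a MutL homolog, had 38.3 and 82.5 counts per 100000 in the controls, against 121 and 131 in the knockdowns. The knockdown libraries lay above both controls, which themselves differed 2.15-fold, and the log2 fold change was 1.33 ± 0.49 (edgeR adjusted p = 0.304; 0.85 without control replicate 1). MLH3, another MutL homolog, had 27.9 and 104 in the controls, against 146 and 119 in the knockdowns (log2 fold change 1.24 ± 0.63, edgeR adjusted p = 0.428; 0.58 without control replicate 1). Its 3343-nt single-exon circle at chr14:75046376-75049718 had 78 and 464 counts in the controls, against 336 and 409 in the knockdowns. Per 100000 these were 16.5 and 83.4 against 119 and 105, without overlap, so MLH3 as a whole followed this molecule.

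Among the other members with at least 200 counts, MSH3, a mismatch recognition protein, had 19.5 and 26.8 counts per 100000 in the controls, against 35.4 and 40.5 in the knockdowns (log2 fold change 1.00 ± 0.37, edgeR adjusted p = 0.304). The knockdown libraries of ERCC6L2, a helicase-like factor of end joining, also exceeded both controls, with 31.8 and 43.7 against 45.3 and 45.6, as did those of the WRN helicase, with 15.7 and 16.5 against 21.6 and 17.9. RAD17, the loader of the checkpoint clamp, had 4.45 and 15.6 counts per 100000 in the controls, against 15.9 and 18.9 in the knockdowns, and control replicate 1 alone lay far from the rest. The effector kinase CHEK2 had 32.7 ± 0.204 counts per 100000 in the controls and 23.6 ± 5.13 in the knockdowns (SD, n = 2 each). The ATR activator TOPBP1 had 22.0 and 23.0 against 19.8 and 18.2. Both lay lower in each knockdown library before TMM scaling, and their log2 fold changes after it were -0.17 ± 0.34 and 0.06 ± 0.33, neither beyond its SE. The ubiquitin ligases RAD18, SHPRH and RNF168 had log2 fold changes of 0.10 ± 0.35, 0.26 ± 0.36 and 0.04 ± 0.36, each smaller than its SE. Circles assigned to several genes made up 24.2% of the ERCC6L2 counts and 22.5% of the RNF168 counts. The remaining 19 tested members had between 12 counts (PARP1) and 188 (UIMC1) in all, and their log2 fold changes lay between -2.72 (RAD1) and 1.95 (ETAA1), with none at an unadjusted p under 0.05 in edgeR.

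The rest of the pathway was read from a list of 114 further DNA damage response genes. Of these, 87 had counts, 69 were tested, and 1 passed the edgeR threshold as higher and none as lower, against 0.442% of all host genes, all higher. At an unadjusted p under 0.05 in edgeR, 7 were higher and 4 lower, against 7.58% and 6.19% of all host genes. The gene past the threshold was USP1, a deubiquitinase that acts on FANCD2 and PCNA, with 7.41 and 13.3 counts per 100000 in the controls, against 65.8 and 88.8 in the knockdowns (log2 fold change 3.17 ± 0.47, edgeR adjusted p = 0.0413). With edgeR's newer dispersion method 0 of all host genes passed. The median log2 fold change of the 69 genes was 0.08, close to that of the members.

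The second comparison asked the same of single circles. Of 467 member circles with at least 10 counts, none passed an adjusted p of 0.05 in edgeR, as none did among all 21576 circles tested (0.0%). At an unadjusted p under 0.05, 51 member circles were higher and 8 lower, against 9.29% and 4.26% of all circles. DESeq2 called 28 member circles at an adjusted p of 0.05, 25 of them higher, against 5.03% of all circles (1085 of 21576, 934 of them higher). The groups did not overlap in 129 higher and 82 lower member circles, against 23.2% and 22.9% of all circles. Among the 120 member circles with at least 40 counts, 35 were higher and 18 lower without overlap, against 29.7% and 28.9% of all circles at that minimum. The median log2 fold change was 0.05 for member circles and -0.41 for all circles. By role, 8 of 39 circles of the recombination genes and 5 of 34 of the mismatch repair genes were higher at an unadjusted p under 0.05. So were 15 of 157 of the checkpoint genes, 13 of 114 of the break sensors, 7 of 74 of the lesion bypass genes and 3 of 49 of the end joining genes. Those lower at that p numbered 2, 0, 0, 1, 3 and 2 in the same order. Few genes held most of the higher circles in some roles: FIRRM and BRCA2 had 4 and 3 of the 8, PMS1 4 of the 5 and ATM 11 of the 15. Leaving out control replicate 1 or 2 gave 78 or 132 member circles past the threshold, where 28.2% and 43.4% of all circles passed, and leaving out either knockdown library gave 0.

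The third comparison asked whether the circles of a host gene changed unequally, that is, whether the choice of back-splice ends within a gene differed between the groups. Of 34 members with at least 2 tested circles, 4 reached an adjusted p under 0.05 in edgeR's F test of circle use, FIRRM, BRCA2, REV3L and PMS1, against 4.07% of 2335 host genes. At an unadjusted p under 0.05 there were 13 members, against 18.0% of all host genes. In the same fit, 7 of 435 member circles passed when each was set against the other circles of its gene, against 0.739% of all circles. Without knockdown replicate 1 or without knockdown replicate 2 none of the 4 genes passed, and their adjusted p-values lay between 0.445 and 0.997. In those fits the spread comes from the 2 controls alone, and 2 of 2149 and 1 of 2069 host genes passed in the whole table. The log2 fold change of the FIRRM circle chr1:169798857-169827199 was then 3.01 and 2.60, against 2.68 with all libraries. Without control replicate 1 all 4 passed, among 18 members, but 47.1% of all host genes then passed as well, and without control replicate 2 there were 20 members with 50.2% of all host genes.

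FIRRM had the smallest adjusted p of the members (edgeR F test over 12 circles, F = 9.64, adjusted p = 0.000116). FIRRM lies on the plus strand of chromosome 1, at 169783837 to 169854080 in GRCh38.p14, and most of its exon-circle counts came from circles that began at either of 2 exons that follow each other. Circles that began at 169795829, with an exon of 155 nt, took 54.8% and 62.8% of the exon-circle counts of the gene in the controls, against 18.0% and 13.8% in the knockdowns. Circles that began at the next exon, at 169798857, took 19.7% and 19.4% in the controls, against 66.0% and 68.0% in the knockdowns. The controls and the knockdowns were thus close within each group and wide apart between groups, for both ends. Shares within a gene must trade off, so levels scaled to the library total were read as well. Circles that began at 169795829 had levels of 24.1 and 27.8 in the controls, against 12.7 and 12.3 in the knockdowns. Those that began at 169798857 had 8.68 and 8.62 in the controls, against 46.7 and 60.4 in the knockdowns. The rise was thus larger than the fall. A further start within the later exon, at 169798942, had shares of 15.9% and 10.9% in the controls, against 5.5% and 6.63% in the knockdowns. Its levels overlapped, at 6.99 and 4.85 in the controls, against 3.89 and 5.89 in the knockdowns. Starts in that exon thus did not all rise.

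The pairs of FIRRM circles given next shared the downstream end and differed by that first 155-nt exon, and the circles of each pair moved in opposite directions. The circle chr1:169798857-169827199, of 10 exons and 1122 nt, had 27 and 34 counts in the controls, against 99 and 172 in the knockdowns (log2 fold change 2.68 ± 0.36, edgeR adjusted p = 0.0949). The circle chr1:169795829-169827199, of 11 exons and 1277 nt, had 49 and 64 in the controls, against 21 and 22 in the knockdowns (log2 fold change -0.81 ± 0.38). With the nearer downstream end, chr1:169795829-169807929 had 42 and 69 counts in the controls, against 10 and 13 in the knockdowns, while chr1:169798857-169807929 had 3 and 4 against 9 and 29. Set against the other circles of FIRRM, chr1:169795829-169807929 fell by 1.72 on the log2 scale (edgeR adjusted p = 0.0159). The 2 circles that ended at 169821759 and 169804240 and began at 169795829 were also lower in both knockdown libraries, as were 22.9% of all circles. The one that ended at 169804240 had only 12 counts in the controls and 3 in the knockdowns (pooled ratio 0.382, exact 95% interval 0.0692 to 1.42). From the next start, chr1:169798857-169832506 had 9 counts in the controls and 3 in the knockdowns (pooled ratio 0.509, exact 95% interval 0.0887 to 2.04).

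BRCA2 had large contrasts in single circles (edgeR F test over 9 circles, F = 7.02, adjusted p = 0.00588). BRCA2 lies on the plus strand of chromosome 13, and the upstream end at 32336265 is the start of its 4932-nt exon, which encodes the BRC repeats. Circles that began there took 15.4% and 13.5% of the exon-circle counts of BRCA2 in the controls, against 68.2% and 52.4% in the knockdowns. The circle chr13:32336265-32346896, made of this exon and the following exons of 96 and 70 nt, had 1 and 1 counts in the controls, against 81 and 50 in the knockdowns. The ratio of pooled counts per 100000 was 100.0, with an exact 95% interval of 27.2 to 835 for counting error only, and the edgeR adjusted p was 0.0884. Set against the other circles of BRCA2, this circle passed the threshold (edgeR adjusted p = 0.0301).

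The 4932-nt exon was also closed upon itself. The single-exon circle chr13:32336265-32341196 had 0 and 2 counts in the controls, against 34 and 33 in the knockdowns, a pooled ratio of 51.2 (exact 95% interval 13.6 to 431; edgeR adjusted p = 0.0949). The downstream end at 32357929 ran the other way as a share, with 76.9% and 60.4% of exon-circle counts in the controls, against 16.4% and 14.1% in the knockdowns. In counts per 100000 that end did not move in 1 direction, at 4.23 and 12.0 in the controls, against 11.7 and 6.66 in the knockdowns. The control shares rest on few molecules, since BRCA2 had 32 and 118 counts in the controls.

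PMS1 (edgeR F test over 14 circles, F = 3.64, adjusted p = 0.0397) kept a main circle and had further circles from its 3′ part in the knockdowns. The main circle, 4 exons of 602 nt at chr2:189791790-189818180, held 53.1% of PMS1 counts, with 95 and 286 in the controls, against 173 and 240 in the knockdowns. The circle chr2:189852655-189855128, which holds the 890-nt exon of the gene and 1157 nt in all, had 0 and 1 counts in the controls, against 32 and 62 in the knockdowns. Its pooled ratio was 144, with an exact 95% interval of 25.2 to 5730 for counting error only, and the edgeR adjusted p was 0.0880. Set against the other circles of PMS1 it passed the threshold (edgeR adjusted p = 0.0110). Circles that began at 189852655 together took 1.33% and 3.31% of exon-circle counts in the controls, against 18.2% and 22.4% in the knockdowns. A longer circle from the same start, chr2:189852655-189873656, had 2 and 13 counts in the controls, against 18 and 33 in the knockdowns.

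**Figure D3:**
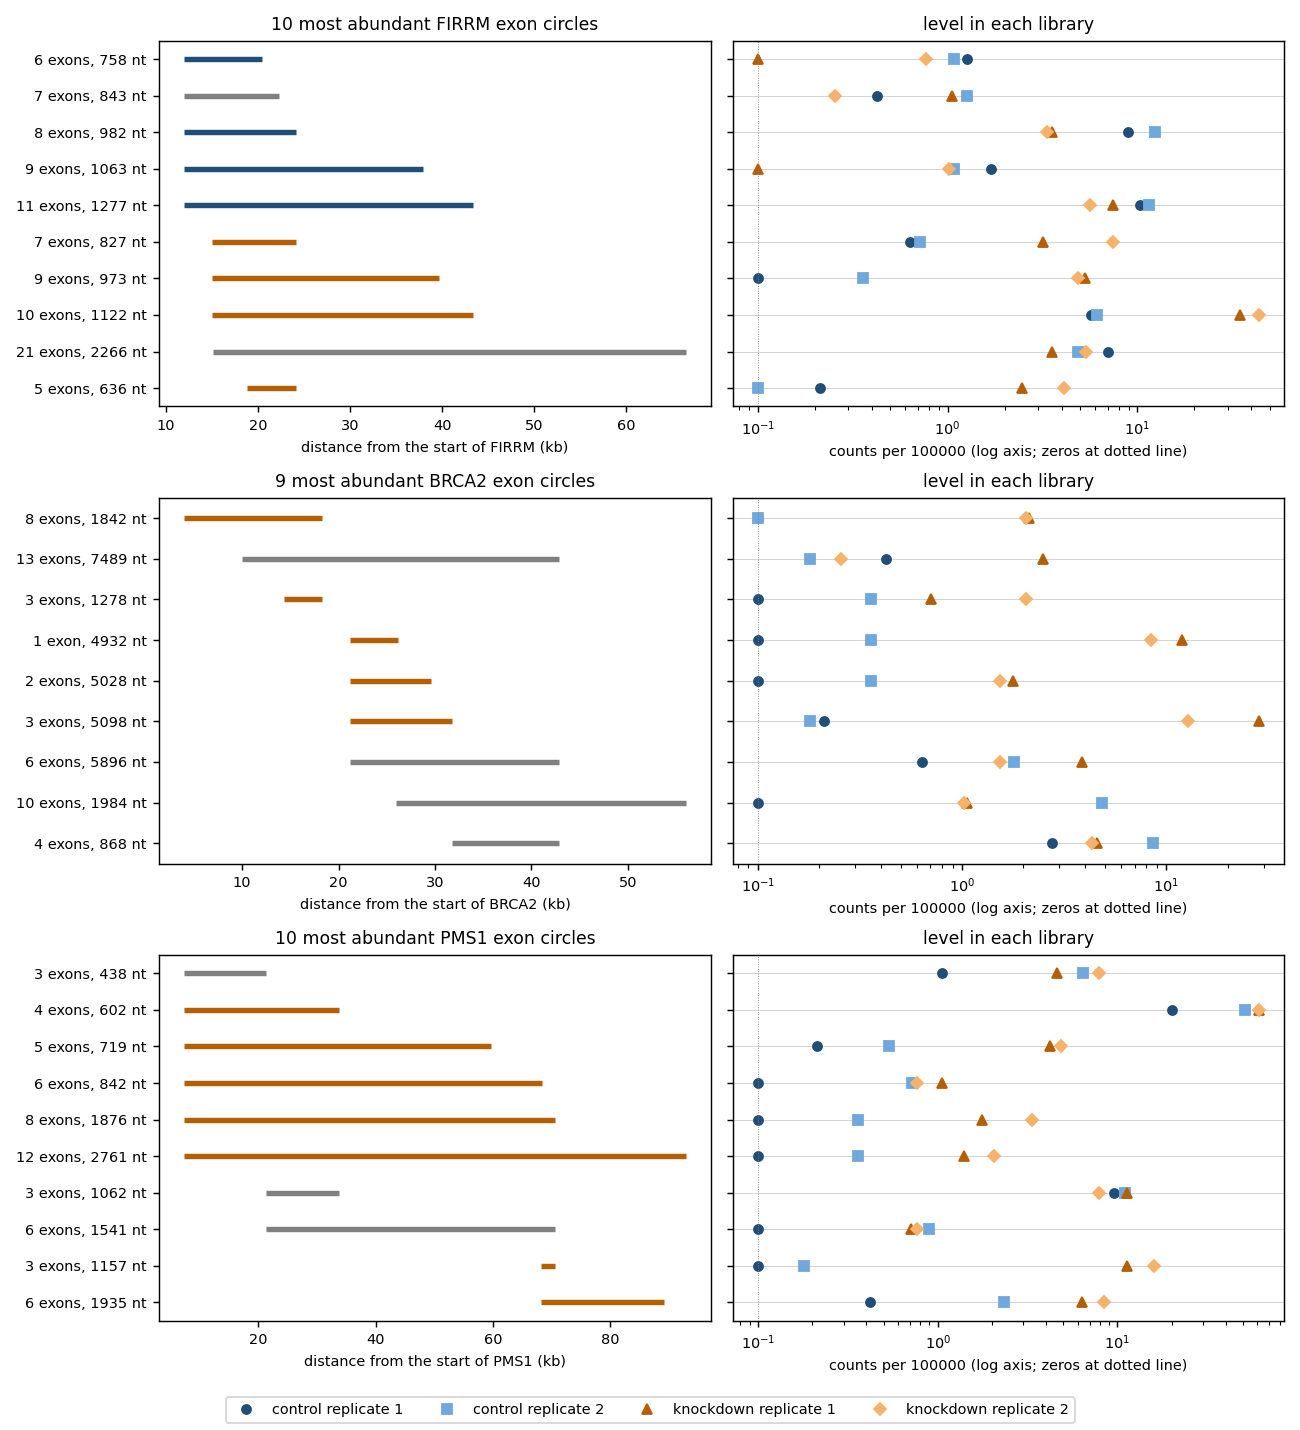
Exon circles of FIRRM, BRCA2 and PMS1 drawn from their upstream to their downstream end in kb from the start of the gene (left) and their counts per 100000 in each library on a log axis with zeros on the dotted line (right). Orange bars are circles with both knockdown libraries above both controls, blue bars those with both below, and grey bars those that overlap; FIRRM shows blue circles from the first start and orange circles from the next.

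REV3L (edgeR F test over 18 circles, F = 3.14, adjusted p = 0.0364) had higher shares of circles from its 5′ part in the knockdowns. REV3L lies on the minus strand of chromosome 6. Circles that ended at 111387765 took 8.72% and 13.8% of its exon-circle counts in the controls, against 29.1% and 39.4% in the knockdowns. The most abundant of them, chr6:111387765-111472140, of 9 exons and 1085 nt, had 3 and 15 counts in the controls, against 49 and 74 in the knockdowns (log2 fold change 3.40 ± 0.57, edgeR adjusted p = 0.104). Circles that ended at 111299992, near the 3′ end of the gene, took 10.7% and 15.4% in the controls, against 2.55% and 1.92% in the knockdowns. The REV3L call was lost with a minimum of 40 counts per circle (adjusted p = 0.884) and with Simes' method (adjusted p = 0.532), and BRCA2 also missed with Simes' method (adjusted p = 0.0598). Rows that also named another gene held 32.0% of REV3L counts and were left out of this test.

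Circle use in BARD1 missed the threshold (edgeR F test over 20 circles, adjusted p = 0.194). BARD1 lies on the minus strand of chromosome 2, at 214725646 to 214809683, and its 13 exon circles with at least 40 counts all held the exon of 950 nt at 214780560 to 214781509. The upstream end at 214781509 took 48.2% and 47.2% of exon-circle counts in the controls, against 47.3% and 47.1% in the knockdowns, and the end at 214797117 took 44.4% and 46.4% against 45.7% in each knockdown. The total of BARD1 in control replicate 1 was 3.31-fold lower than in control replicate 2, so these 2 shares stayed close while the level differed. Another upstream end, at 214792445, took 6.08% and 5.88% in the controls, against 6.67% and 6.90% in the knockdowns.

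Among the downstream ends of BARD1, the one with the widest difference was that of the 950-nt exon itself. Circles that ended at 214780560 took 2.09% and 3.21% of BARD1 exon-circle counts in the controls, against 12.7% and 12.0% in the knockdowns. The ends further downstream at 214752447 and 214745067 had lower shares in both knockdown libraries, with 21.7% and 19.1% against 15.4% and 16.4% for the former and 11.8% and 10.3% against 9.31% and 9.54% for the latter, and the rarer ends at 214728918 and 214727660 were lower as well. In counts per 100000 the circles that ended at 214780560 had 4.45 and 22.8 in the controls, against 83.5 and 90.9 in the knockdowns, while all other BARD1 exon circles had 208 and 689 in the controls, against 574 and 666 in the knockdowns. In the first set each knockdown library exceeded each control, and in the second both lay between the controls. The most abundant circle of the set, chr2:214780560-214797117, with exons of 57, 149 and 950 nt, had 17 and 110 counts in the controls, against 195 and 292 in the knockdowns (log2 fold change 2.66 ± 0.67, edgeR adjusted p = 0.179). The circle of the 950-nt exon alone had 1 and 8 counts in the controls, against 18 and 27 in the knockdowns (log2 fold change 2.93 ± 0.70, edgeR adjusted p = 0.166). The most abundant BARD1 circle of all, chr2:214767482-214781509, had 365 and 1505 counts in the controls, against 711 and 1111 in the knockdowns and a log2 fold change of 0.66 ± 0.50, or 0.15 without control replicate 1. With a minimum of 40 counts per circle, BARD1 and ATR passed the test of circle use (adjusted p = 0.0325 and 0.0323), where 17.5% of all host genes passed.

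**Figure D4:**
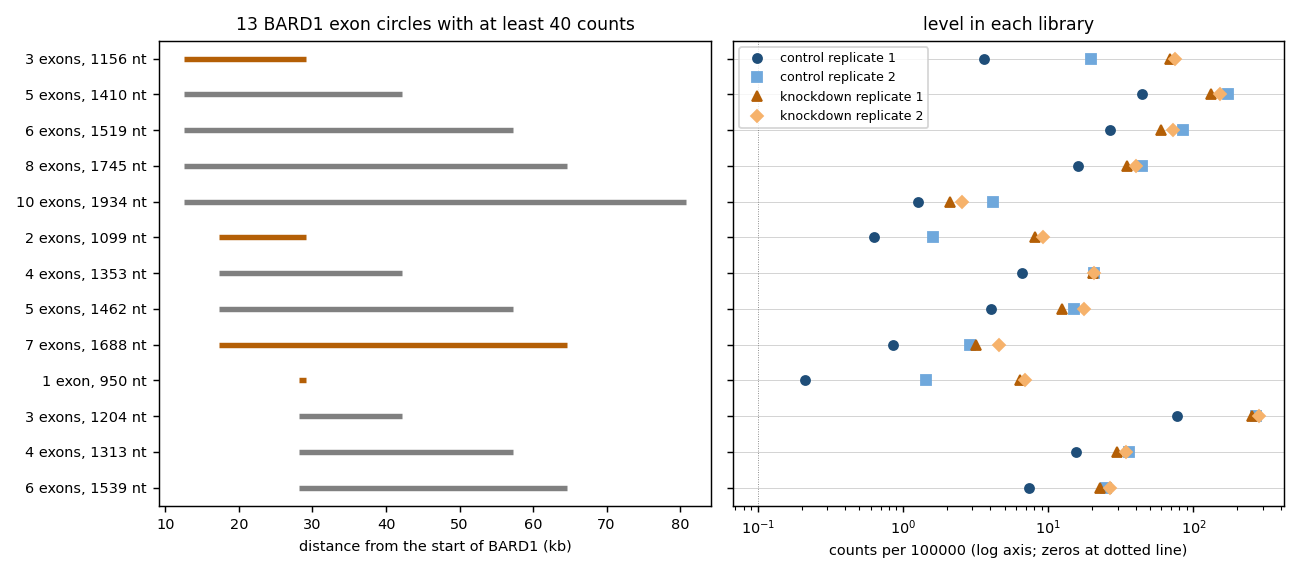
The 13 BARD1 exon circles with at least 40 counts, drawn in kb from the start of the gene (left; orange where both knockdown libraries lie above both controls, grey where the groups overlap), and their counts per 100000 in each library on a log axis (right). The circles that end at 29.1 kb, at the downstream edge of the 950-nt exon, are higher in both knockdown libraries.

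In the kinases ATR and ATM some ends also differed in share. ATR lies on the minus strand of chromosome 3, and its circles that ended at 142465097 took 1.06% and 1.53% of exon-circle counts in the controls, against 9.64% and 12.6% in the knockdowns. The circle chr3:142465097-142470183, of 5 exons and 820 nt near the 3′ end of ATR, had 2 and 7 counts in the controls, against 41 and 57 in the knockdowns (log2 fold change 4.02 ± 0.51, edgeR adjusted p = 0.0949), and its row also named another gene. The most abundant ATR circle, chr3:142512260-142560454, had 75 and 141 counts in the controls, against 73 and 64 in the knockdowns, with a fold change near 0 whose sign turned under several settings. In ATM, on the plus strand of chromosome 11, circles that began at 108227595 took 10.3% and 20.7% in the controls, against 32.1% and 23.9% in the knockdowns, and those that ended at 108335961 took 61.1% and 59.3% in the controls, against 47.6% and 45.8% in the knockdowns. Circle use in ATM missed the threshold (edgeR F test over 56 circles, adjusted p = 0.0738), as did BRCA1 (adjusted p = 0.0794). The main ATM circle, chr11:108315823-108335961, of 16 exons and 2266 nt, had 222 and 730 counts in the controls, against 287 and 356 in the knockdowns (log2 fold change 0.13 ± 0.43, edgeR adjusted p = 0.896; -0.28 without control replicate 1).

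**Figure D5:**
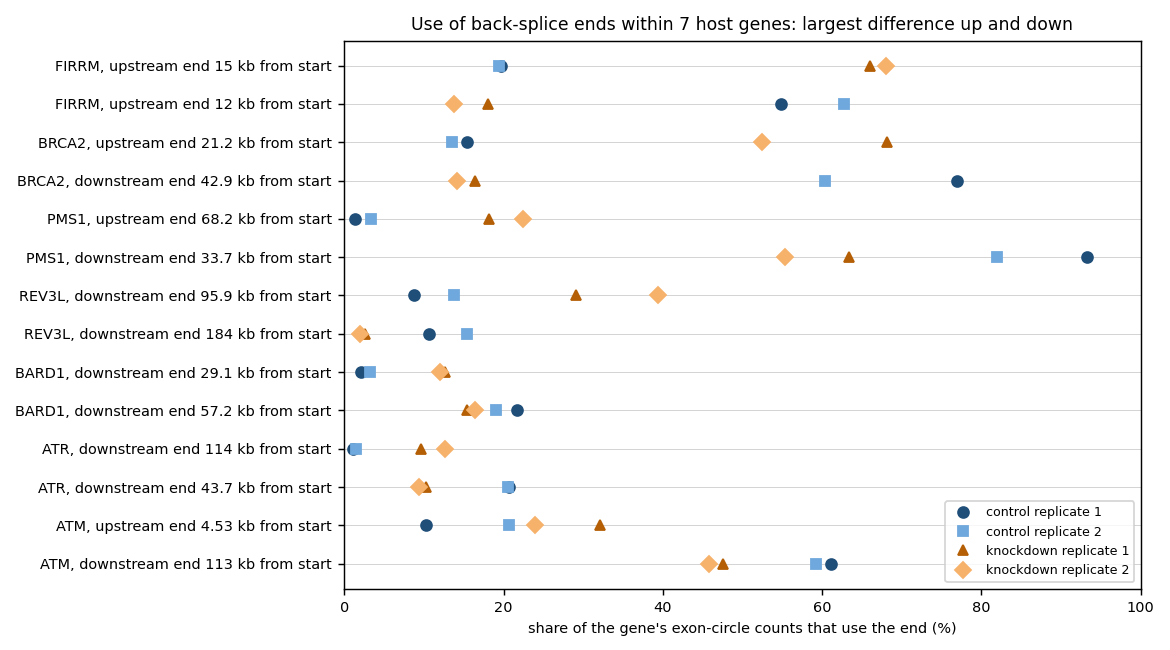
Share of exon-circle counts of 7 genes that use a given upstream or downstream end, in percent, with 1 point per library, for the end with the largest positive and the largest negative difference among ends with at least 40 counts in each gene. The FIRRM and BRCA2 ends separate the groups most widely.

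The 5 lower circles with the smallest p among those with at least 40 counts lay in FIRRM, POLQ, REV1 and PRKDC. The main POLQ circle, chr3:121449315-121487509, of 10 exons and 1658 nt, had 165 and 238 counts in the controls, against 48 and 74 in the knockdowns. Per 100000 the mean was 38.8 ± 5.54 (SD, n = 2) in the controls and 18.0 ± 1.39 (SD, n = 2) in the knockdowns, and the log2 fold change was -1.16 ± 0.32 (edgeR adjusted p = 0.208). In REV1, chr2:99449336-99464985, of 4 exons and 517 nt, had 22 and 55 counts in the controls, against 5 and 3 in the knockdowns (log2 fold change -2.56 ± 0.61, edgeR adjusted p = 0.167). A further REV1 circle, chr2:99429840-99435941, had 16 and 22 against 3 and 4 (log2 fold change -1.84 ± 0.57, edgeR adjusted p = 0.247), while the most abundant one, chr2:99412731-99464985, had 111 and 118 against 58 and 70 (log2 fold change -0.30 ± 0.36). In PRKDC the most abundant circle held 8.11% of the counts, with 63 and 50 in the controls, against 15 and 27 in the knockdowns, and a circle deposited as a single 1071-nt block had 20 and 36 against 8 and 10. That block covers 2 exons of the most abundant PRKDC circle, of 153 and 126 nt, and the intron between them. None of these passed the edgeR threshold.

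Among the remaining named members, the most abundant circle of HLTF (12 exons, 1245 nt) had 0 and 16 counts in the controls, against 17 and 32 in the knockdowns (log2 fold change 2.28 ± 1.03, edgeR adjusted p = 0.428). That of RIF1 (11 exons, 4349 nt, with an exon of 3237 nt) had 15 and 44 counts in the controls, against 43 and 34 in the knockdowns. That of EXO1 (12 exons, 2422 nt) had 21 and 14 in the controls, against 6 and 1 in the knockdowns (log2 fold change -1.73 ± 0.96, edgeR adjusted p = 0.437). Antisense rows that named a member, which the assignment leaves out, had 150 and 147 counts in the controls, against 29 and 42 in the knockdowns. As shares of the library totals, which differ, these were 0.0318% and 0.0264% against 0.0103% and 0.0108%. The antisense rows of other genes were not compared, so the difference is not shown to be particular to the members.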

How the data were processed

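The authors deposited whole-number counts per circular RNA, called with CIRI-long per the file headers, and per the submitters' processing notes used GRCh38.p14 and DESeq2. The deposited circle length, in nt, was used as given. The deposited scaled table sums to 100000 in each library and was not used. The aligner and the filters are not given in the sources used here. Members and lists were chosen with earlier results of these data known.

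Counts of each row that was not antisense were added to every gene it names. A minimum of 10 counts, summed over the libraries, was set for host genes and for rows, which were tested with edgeR 4.0.16 (glmQLFit, glmQLFTest, TMM, Benjamini-Hochberg over all features, threshold 0.05) in R 4.3.3, with library totals over all rows as library sizes. Circle use was tested with diffSpliceDGE on rows that name 1 gene. Standard errors came from the F statistic. Levels are counts per 100000 of the library total, without TMM. Scripts were tested on simulated data. DESeq2 1.42.0, other scalings, filters, gene assignments, a replicate block and left-out libraries were alternatives.

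Named members were the 10 with most counts, those past the threshold, and the 5 higher and 5 lower with the smallest p among those whose groups do not overlap. Named circles were the most abundant one of each such member with at least 40 counts, and the 5 higher and 5 lower with the smallest p. MRE11, RAD50, TP53BP1, BRCA1 and LIG4, the shares of ends and the other circles described were chosen after their values were seen. No genome sequence was used, so sequences at the back splices were not analysed here.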

Additional observations from a re-analysis of the deposited data

How the results depend on the processing

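Members past the threshold as host genes numbered 0, but 2 with DESeq2 (BRCA2 and REV3L; 2.20% of all host genes), 3 with no count filter (BRCA2, NBN and LIG3; 2.49%) and between 0 and 25 when single libraries were left out. The other 8 settings of scaling, filter, dispersion and assignment gave 0. Member circles past the threshold numbered 0, but 28 with DESeq2, 13 with at least 40 counts, 37 with at least 5 counts in 2 libraries, 8 with exon circles alone and 11 with no count filter, where 5.03%, 11.4%, 12.1%, 1.70% and 0.248% of all circles passed, and between 0 and 132 with single libraries left out. With edgeR's newer dispersion method, 0 of all circles and 0 of all host genes passed, and 4016 circles and 1253 host genes had an unadjusted p under 0.05. For circle use, 4 members became 2 with Simes' method (FIRRM and PMS1), and 0 to 20 with single libraries left out. For circles set against their host gene, 7 became 0 to 45 with single libraries left out, an alternative added after the data were seen. A fit without 1 control compares a lone control, assumed to vary like the knockdowns, and the cause of its larger counts was not tested.

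With the replicate number as a block, 3 members passed as host genes (BRCA2, HLTF and NBN), 38 member circles passed, 9 members passed for circle use and 12 circles passed against their host gene, where 3.58%, 7.51%, 21.2% and 2.61% of all features tested passed. Same-numbered libraries shared only a number: their deviations correlated at 0.0798 over 4764 host genes and 0.0706 over 4944 circles.

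Leaving out single libraries, the difference in the share of counts in members lay between 0.103 and 1.09 percentage points, that of the non-exon share between -8.08 and -0.615, and that of circle length between -53.5 and -1.5 nt. The sign turned for POLQ (0.39) and REV1 (0.19) without control replicate 2, with ranges from -0.73 and from -0.17. It turned for the main ATM circle (-0.06 with no count filter, -0.28 to 0.88 with single libraries left out) and for the main REV1 circle (-0.45 to 0.02, the latter without control replicate 1). The main ATR circle, at -0.00, was 0.04 with DESeq2 and with its size factors, 0.09 with at least 40 counts, 0.01 with at least 5 counts in 2 libraries, 0.03 with library-size scaling, 0.23 without control replicate 2 and 0.40 without knockdown replicate 2 (lowest -0.18). Of all other fits of named members, 248 kept direction and side of the threshold and 35 passed it, and for named circles these were 189 and 74.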

Other observations

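The following values on circles with a long exon were chosen after the single-exon circles of BRCA2, MLH3 and BARD1 were seen. Of 124 tested exon circles of 22 members with an exon block, as deposited, of at least 900 nt, 76 had a log2 fold change above 0, 40 had both knockdown libraries above both controls and 17 had both below, and the median was 0.46. Of 323 with shorter exons, 158 were above 0, 88 and 61 did not overlap, and the median was -0.00. Among the circles of all other genes, 895 were higher and 584 lower without overlap of 3321 with such a block, and 3419 and 3647 of 14022 without, with medians of -0.17 and -0.28. No test was made.

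The circle of REV3L at chr6:111372596-111380219, with an exon of 4162 nt, had 2 and 1 counts in the controls, against 12 and 10 in the knockdowns. In ATR, the circle chr3:142560263-142568154, whose longest exon of 878 nt is below that length, had 0 and 10 in the controls, against 19 and 32 in the knockdowns, and it passed the threshold against the other ATR circles (edgeR adjusted p = 0.0359).

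Some member circles reached into a neighbouring gene. Circles that named PMS1 and C2orf88 had 0 counts in both controls and 9 and 5 in the knockdowns. Those that named POLK and ANKDD1B had 3 and 3 in the controls and 0 in both knockdowns. These PMS1 and POLK sets were chosen after their values were seen, and no test was made. The POLK control counts do not exceed the floor of 3 counts for a library with 0, so no difference is shown. The larger sets, of POLQ and RNF168, had counts in every library. They had 10 and 34 (POLQ) and 8 and 21 (RNF168) in the controls, against 9 and 15 and 10 and 19 in the knockdowns.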
